A study of Mus musculus with 12 samples.

Results

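The genes described here encode core parts of the splicing machinery, namely the SR proteins and the proteins of the spliceosomal small nuclear ribonucleoproteins (snRNPs). They are the protein-coding genes whose symbols begin with Srsf, Snrp, Sf3a or Sf3b and that reached a normalized value of 10 in at least 3 of the 12 libraries. All 32 genes with such symbols met this, out of 21492 genes in the table, and all 32 entered every test. They comprise 11 SR proteins, 8 Sm core proteins, 4 proteins specific to the U1 or U2 snRNP, 3 SF3A subunits and 6 SF3B subunits.

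SR proteins bind exonic sequences and recruit the splicing machinery, and several of them also shuttle to the cytoplasm and act in export and translation. Sm proteins form a ring around the small nuclear RNAs, in the cytoplasm, before the particles move to the nucleus. SF3A and SF3B belong to the U2 snRNP and help it to hold the branch site of the intron. The proteins act in the nucleus for the most part, while their messenger RNAs are translated in the cytoplasm.

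RNA was sequenced from striatal synaptosomes (input), which are nerve terminals pinched off with attached postsynaptic membrane, and from the polyribosomes (polysome) isolated from synaptosomes. The mice were male C57BL/6J at P70 (postnatal day), either wild type (WT) or Shank3 transgenic (TG), and the 4 groups of genotype and fraction held 3 libraries each, numbered 1 to 3. The sources used here do not give the promoter or expression pattern of the transgene, or how many animals went into a library. Because the labels do not say that libraries came from separate animals, p-values measure the spread between these libraries, which may in part be technical.

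The depth in reads assigned to genes, roughly estimated from the spacing of low values, was 62.5 to 86.0 M in input and 77.2 to 103 M in polysome libraries. Only 34.7% to 47.9% of low values lay within 0.1 read of that spacing, so these depths are uncertain. Shank3 read 2121, 4162 and 5858 in WT input and 5456, 17501 and 14107 in TG input (numbers 1 to 3, normalized signal), and 1501, 3702 and 5848 in WT polysome against 5012, 12626 and 12252 in TG polysome. Its log2 difference between genotypes was 1.57 ± 0.49 in input and 1.53 ± 0.52 in polysome (SE, adjusted p = 1.00 in both, limma), and Shank3 was higher in TG in every same-numbered pair without passing the test. All 11 listed markers of medium spiny neurons, the main neurons of the striatum, were in the table, and their summed signal ranged from 200994 to 512301. It was highest in number 2 of each group, where the 7 cortical excitatory markers were lowest (28585 to 50031 against 58936 to 129577 in numbers 1 and 3). The 6 oligodendrocyte markers were also highest in number 2 (326514 to 410799 against 208717 to 260121). Summed markers of blood were highest in number 3 (7433 to 11078 against 3906 to 5728), and those of astrocytes were lowest in the number 3 polysome libraries (209987 and 226243 against 269514 to 354081). The 7 markers of synaptic neurons summed to 198623 to 290537. Choroid and ependymal markers ranged from 572 to 33789 over all libraries. The part of these markers in the results was not tested.

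Levels of the 32 genes spanned a wide range once divided by the length of the coding transcript. Values per kilobase (kb) are normalized signal per kb of that transcript, given as mean ± SD over 3 libraries. The signal is summed per gene, while the length is that of the coding transcript with the longest coding region. That transcript has 1209 bases for Srsf1, 882 for Snrpc and 3841 for Sf3b5. All annotated exons of these genes cover 5710, 6521 and 3841 bases. Ranks and ratios between genes per kb therefore depend on this choice of length. Snrpn, which encodes the Sm protein N that replaces Sm protein B in neurons, was the highest in every group, with input at 9791 ± 1076 in WT and 9259 ± 887 in TG, and polysome at 11999 ± 237 and 10936 ± 1966. Srsf1, an SR protein that shuttles between nucleus and cytoplasm, came second in every group, at 4343 ± 742 in WT input and 3797 ± 636 in WT polysome. Sf3b2, a large SF3B subunit, was next in input (3814 ± 79.5 in WT) and stood at 1949 ± 525 in WT polysome, where Sf3b6, the subunit that touches the branch site, followed Srsf1 instead (2194 ± 287). The lowest values in WT input were those of Sf3b5, a small SF3B subunit (190.2 ± 43.3), and of Srsf4 (208 ± 61.9), whose spreads overlap. Srsf4 was the lowest in both polysome groups, at 175 ± 45.2 in WT and 160.2 ± 44.1 in TG. Among Snrp genes the lowest in WT input was Snrpf, a Sm ring protein (353 ± 73.0). In single libraries before division by length, Srsf1 read 4244, 5966 and 5544 in WT input and 4300.2, 5463 and 4009 in WT polysome. Srsf4, a large SR protein, read 555, 545 and 308 in WT input and 468, 439 and 279 in WT polysome.

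**Figure D1:**
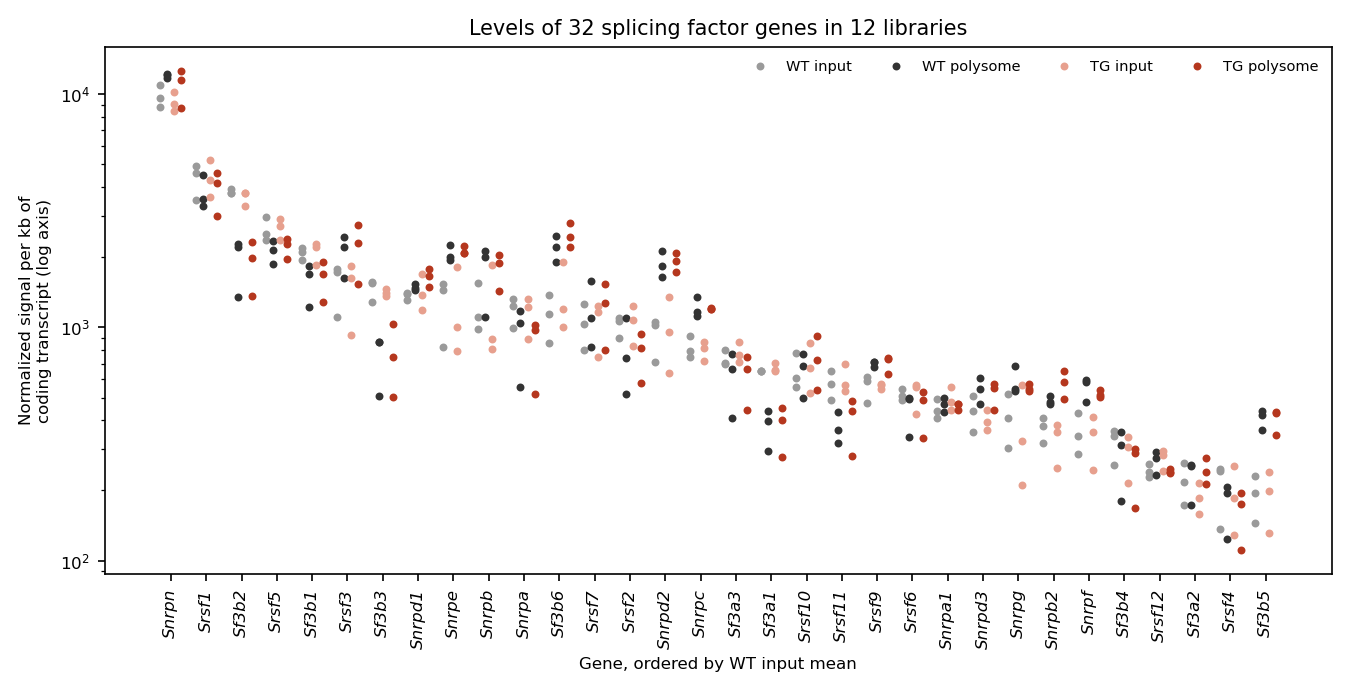
Normalized signal per kb of coding transcript (log axis) of the 32 genes in each of the 12 libraries, ordered by the mean in WT input, with 1 point per library. Snrpn lies above every other gene in all libraries, and Sf3b5, the last gene on the right, has its polysome points above its input points.

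Within a complex the transcripts were not at equal levels by this measure, which depends on the transcript length taken for each gene. In the ring of 7 Sm proteins without Snrpn, the highest transcript was 3.69 to 6.49 times the lowest per kb across the 12 libraries. The 3 SF3A transcripts differed by 2.08 to 4.50 times, with Sf3a3 the highest and Sf3a2 the lowest in each library. For the 6 SF3B transcripts this ratio was 15.7 to 27.0 in the input libraries, from Sf3b2 to Sf3b5, and 6.95 to 13.1 in the polysome libraries, where Sf3b4 was the lowest in all 6 and Sf3b6 the highest in 5 of 6. The range within SF3B was therefore narrower in every polysome library than in any input library.

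Snrpn and Snrpb encode proteins that occupy the same place in the Sm ring. In WT, Snrpb, for Sm protein B, read 1799.7, 1284 and 1148 in input and 2328, 2477 and 1284 in polysome, and Snrpn 22687, 20045 and 18247 and 25016, 24375 and 25339.5. In TG, Snrpb read 2154, 1034 and 939 in input and 2369, 2184 and 1659 in polysome, and Snrpn 21188, 18935 and 17540.2 and 26129.7, 18187 and 23793. Snrpn was the higher of the pair in every library. Per kb, Snrpn was 4.66 to 11.0 times Snrpb within a library. The coding regions aligned over 693 bases, of which 80.5% were identical, and the longest identical run was 32 bases. The first 90 coding bases of each gene, from the reference transcript on GRCm38, show how closely the pair match, with the 13 differing bases in capitals.
Snrpb (within ENSMUSG00000027404, chr2:130171414-130179403, - strand): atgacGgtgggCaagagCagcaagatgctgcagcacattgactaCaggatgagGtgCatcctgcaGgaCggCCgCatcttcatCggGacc
Snrpn (within ENSMUSG00000102252, chr7:59982495-60140219, - strand): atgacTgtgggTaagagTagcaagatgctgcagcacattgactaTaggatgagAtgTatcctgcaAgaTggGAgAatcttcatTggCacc
Of the 31-base sequences in Snrpb exons, 3.32% also occurred in another gene, against 34.5% for Snrpn, of which the largest part was shared with Gm38393, an overlapping gene model (23.7%). Gm38393 read 682 to 1290 in the 12 libraries. Snurf, which lies in the same transcription unit as Snrpn, was listed at 0 in the number 3 input libraries of both genotypes and at 262 to 387 in the other 10, so the division of reads among these gene models is uncertain.

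Other members also share sequence. The share was 92.1% for Snrpf, mostly with the neighbouring Ccdc38 (61.7%, itself at 0 to 23.1), and 51.2% for Sf3b4, mostly with a processed pseudogene (48.6%). It was 41.0% for Srsf4, with the overlapping transcript Gm12992, which read 61.8 to 222, and under 30% for each of the others. Values of Snrpf, Sf3b4, Srsf4 and Snrpn are therefore less certain than those of the rest. Snrpf read 371, 246 and 293 in WT input and 503, 411 and 513 in WT polysome, and 355, 306 and 210.3 in TG input and 442, 434 and 462 in TG polysome. Sf3b4, which contacts the RNA upstream of the branch site, read 691, 655 and 491 in WT input and 599, 681 and 344 in WT polysome, and 588, 648 and 412 in TG input and 556, 577 and 323 in TG polysome.

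The comparison of polysome with input asks which synaptosomal transcripts read higher or lower on polyribosomes in the normalized values. The total normalized signal was 95.5 to 112.6 M in input libraries and 62.2 to 74.3 M in polysome libraries. Higher and lower therefore hold relative to the deposited normalization and are not shares of a library's total signal. In WT, 7 of the 32 genes passed the test (limma, adjusted p under 0.05), 4 higher and 3 lower in polysome, or 21.9% of the members against 14.0% of the 16962 genes tested. By direction, 5.36% of all genes were called higher and 8.59% lower. In TG, 9 of 32 passed (28.1%, against 18.1% of all genes), 6 higher and 3 lower, where 8.19% of all genes were called higher and 9.86% lower. All 7 genes called in WT were also called in TG, although both contrasts came from 1 fit and share its estimate of the spread. Snrpe and Snrpb2 passed in TG and not in WT, and the test of that difference between genotypes gave 0.17 ± 0.40 for Snrpe and 0.42 ± 0.26 for Snrpb2 (log2, SE, adjusted p = 1.00 for each, limma). With the libraries paired by number in the fit (the block), 12 genes passed in WT (8 higher, 4 lower), or 37.5% of members against 29.8% of all genes, and 15 in TG (10 higher, 5 lower), or 46.9% against 33.2%. In bulk RNA, a smaller share of cells or terminals of a type and less RNA per cell cannot be told apart.

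The families differed in direction, and SF3B held both. All 8 Sm core genes lay above 0 in both genotypes, with a median log2 difference of 0.52 in WT and 0.66 in TG, against 0.03 for all genes in each. The 4 U1 and U2 genes had medians of 0.24 and 0.25, the 11 SR genes of -0.19 and -0.18, the 3 SF3A subunits of -0.31 and -0.36, and the 6 SF3B subunits of -0.32 and -0.29. In 14 of the 32 genes polysome exceeded input in all 6 same-numbered pairs, and in 10 it was lower in all 6, where 25.0% and 24.1% of all genes did so. Input and polysome did not overlap for 11 members higher and 6 lower in WT, where 17.7% and 18.5% of all genes did so, and for 8 higher and 4 lower in TG (17.6% and 18.0% of all genes).

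**Figure D2:**
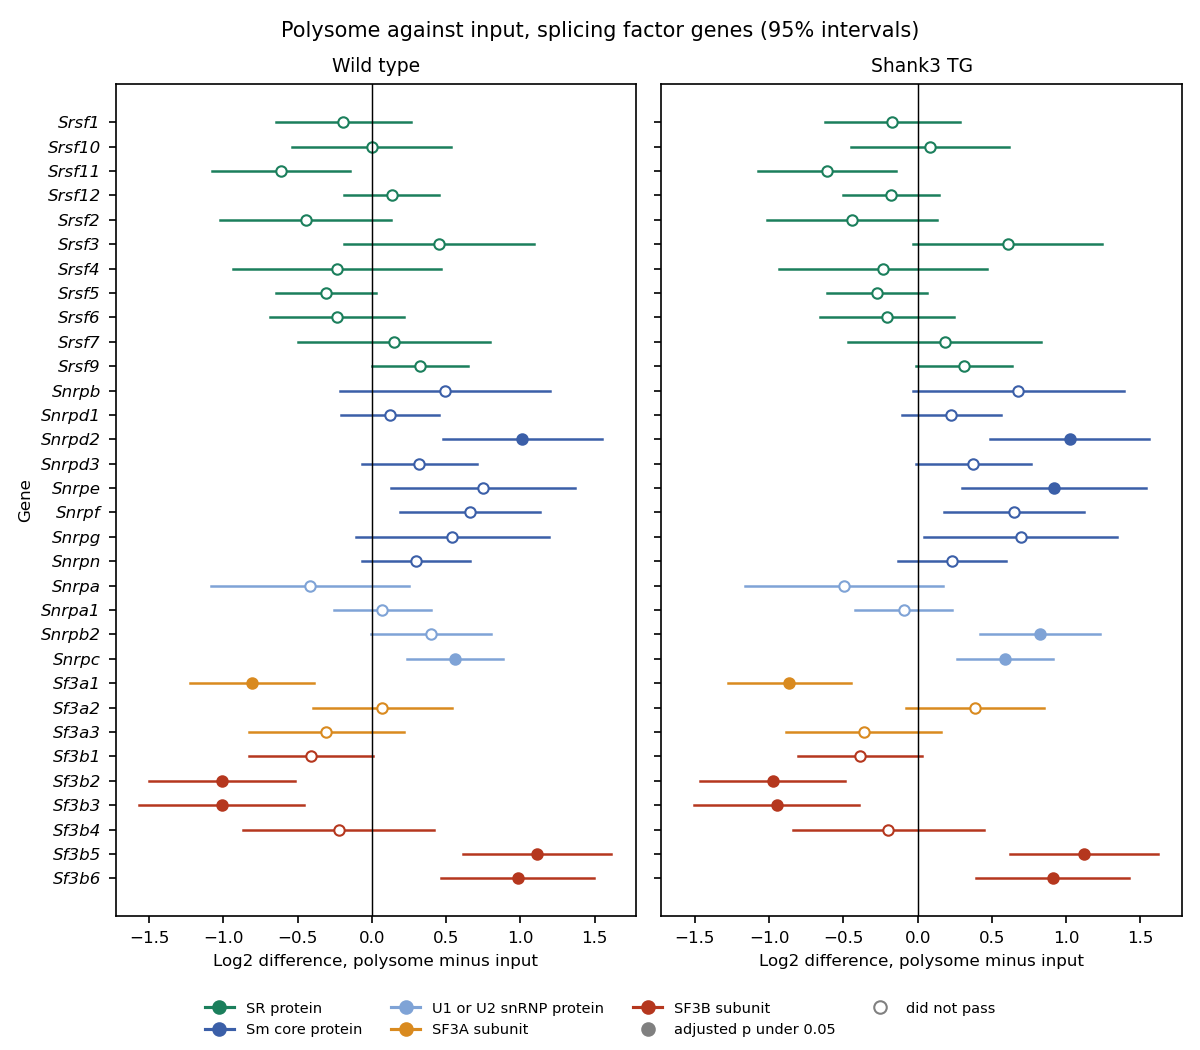
Log2 difference of polysome minus input for each gene in WT (left) and TG (right), with 95% intervals from the fit; filled points passed at an adjusted p under 0.05 and colours give the family. The blue Sm points all lie right of 0, and the SF3B subunits split to both sides, with Sf3b5 and Sf3b6 at 0.91 to 1.12 and Sf3b2 and Sf3b3 at -1.01 to -0.95.

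Of the Sm genes, Snrpd2, for ring protein D2 (ENSMUSG00000040824, chr7:19149722-19153542, + strand), had the largest difference. It read 1461, 1499 and 1010.4 in WT input and 2327, 3012 and 2599 in WT polysome, and 1920.0, 1357 and 902 in TG input and 2949, 2453 and 2738 in TG polysome. Every polysome library lay above every input library, and the log2 difference was 1.01 ± 0.25 in WT (SE, adjusted p = 0.0203, limma) and 1.02 ± 0.25 in TG (adjusted p = 0.0158), or 2.00 and 1.95 times by ratio of means.

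Snrpe, for ring protein E (ENSMUSG00000090553, chr1:133603871-133610291, - strand), read 776, 729 and 416 in WT input and 1009.6, 983 and 1134 in WT polysome, and 911, 506 and 399.8 in TG input and 1129, 1051 and 1052 in TG polysome. The groups did not overlap in either genotype, while the input values differed widely and the polysome values little. The difference passed in TG (0.92 ± 0.29, adjusted p = 0.0429, limma) and in WT with pairing but not without (0.75 ± 0.29, adjusted p = 0.0971 without and 0.0459 with the block). In TG it stayed past the threshold in 11 of 26 other settings.

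The other ring proteins showed smaller or more scattered values. Snrpf had 0.66 ± 0.22 in WT and 0.65 ± 0.22 in TG, and passed with the block (adjusted p = 0.0240 and 0.0219, limma) and not without it (0.0602 and 0.0551). Snrpb had 0.49 ± 0.33 and 0.68 ± 0.33 and, of the fits with and without the block, passed in TG with it (adjusted p = 0.0290). Snrpg had 0.54 ± 0.30 and 0.69 ± 0.30, Snrpd3 0.32 ± 0.18 and 0.38 ± 0.18, Snrpn 0.30 ± 0.17 and 0.23 ± 0.17, and Snrpd1 0.12 ± 0.15 and 0.23 ± 0.15, and none of these 4 passed in either fit. So the ring's transcripts spanned log2 differences from 0.12 to 1.01 in WT, although their proteins assemble together.

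Among the U1 and U2 proteins, Snrpc, the zinc finger protein C of the U1 particle (ENSMUSG00000024217, chr17:27838150-27851968, + strand), read 813, 695 and 659 in WT input and 984, 1186 and 1024 in WT polysome. It read 767, 722 and 635 in TG input and 1064, 1061 and 1059 in TG polysome, so that the groups were again apart in both genotypes. Its log2 difference was 0.56 ± 0.15 in WT (adjusted p = 0.0276, limma) and 0.59 ± 0.15 in TG (adjusted p = 0.0188).

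Snrpb2, for the U2 protein B'' (ENSMUSG00000008333, chr2:143063039-143072853, + strand), read 839, 777 and 658 in WT input and 1043, 963 and 986 in WT polysome, and 785, 733 and 511 in TG input and 1201, 1342 and 1015 in TG polysome. The difference was 0.82 ± 0.19 in TG (adjusted p = 0.0123, limma) and 0.40 ± 0.19 in WT (adjusted p = 0.168, and 0.0464 with the block). Its partner in the U2 particle, Snrpa1 (protein A'), had 0.07 ± 0.15 in WT and -0.09 ± 0.15 in TG. Snrpa, protein A of U1, had -0.42 ± 0.31 and -0.49 ± 0.31, lower in polysome in all 6 pairs, and passed in TG with the block (adjusted p = 0.0436) but not without it. Another U1 protein gene, Snrnp70, which is not a member and was picked after its values were seen, was lower in polysome, with log2 differences of -1.30 ± 0.22 in WT and -1.25 ± 0.22 in TG (adjusted p = 0.00437 and 0.00421, limma).

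The SF3 genes held the largest differences in both directions. Sf3b5, a small subunit encoded by a single exon (ENSMUSG00000078348, chr10:13005343-13009183, + strand), read 888, 747 and 556 in WT input and 1388, 1610.4 and 1675 in WT polysome. It read 921, 760.5 and 506 in TG input and 1662, 1332 and 1654 in TG polysome, with all polysome libraries above all input libraries. Its log2 difference was 1.11 ± 0.23 in WT (adjusted p = 0.0108, limma) and 1.12 ± 0.23 in TG (adjusted p = 0.00859), or 2.13 and 2.12 times by ratio of means. Sf3b6, also called p14 (ENSMUSG00000037361, chr12:4817544-4827659, + strand), read 1341, 1625 and 1014 in WT input and 2241, 2916 and 2611 in WT polysome. It read 2249, 1414 and 1184 in TG input and 3309, 2893 and 2603 in TG polysome, with no overlap within either genotype. Its difference was 0.98 ± 0.24 in WT (adjusted p = 0.0198) and 0.91 ± 0.24 in TG (adjusted p = 0.0225, limma).

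Sf3b2, a large subunit that binds near the branch site (ENSMUSG00000024853, chr19:5273932-5295455, - strand), read 12121, 12161 and 12584 in WT input and 7350.2, 7159.7 and 4332 in WT polysome. It read 12139, 12185 and 10737 in TG input and 6384, 7471 and 4378 in TG polysome. The input libraries lay close together and all polysome libraries far below them, with number 3 the lowest in each genotype. The difference was -1.01 ± 0.23 in WT (adjusted p = 0.0148, limma) and -0.98 ± 0.23 in TG (adjusted p = 0.0133). Sf3b3, a large scaffold subunit of SF3B (ENSMUSG00000033732, chr8:110810239-110846787, - strand), read 5813, 7049 and 7058 in WT input and 3919, 3936 and 2295 in WT polysome. It read 6199, 6382 and 6589 in TG input and 3378, 4691 and 2282 in TG polysome, again with number 3 lowest. Its difference was -1.01 ± 0.26 in WT (adjusted p = 0.0238) and -0.95 ± 0.26 in TG (adjusted p = 0.0251, limma).

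Sf3a1, the largest SF3A subunit (ENSMUSG00000002129, chr11:4160350-4182541, + strand), read 3188, 3205 and 3210.0 in WT input and 1945, 2156 and 1455 in WT polysome. It read 3206, 3463 and 3232 in TG input and 1962, 2222 and 1367 in TG polysome, with no overlap in either genotype. Its difference was -0.81 ± 0.19 in WT (adjusted p = 0.0185, limma) and -0.86 ± 0.19 in TG (adjusted p = 0.0116). Sf3b1, the subunit that carries recurrent mutations in blood cancers, had -0.41 ± 0.19 in WT and -0.39 ± 0.19 in TG and did not pass, although it was lower in polysome in all 6 pairs. Sf3a3 had -0.31 ± 0.24 and -0.36 ± 0.24, and Sf3b4 -0.22 ± 0.30 and -0.20 ± 0.30, and neither passed. Sf3a2 had 0.07 ± 0.22 in WT and 0.38 ± 0.22 in TG and passed in TG with the block (adjusted p = 0.0455) but not without it.

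**Figure D3:**
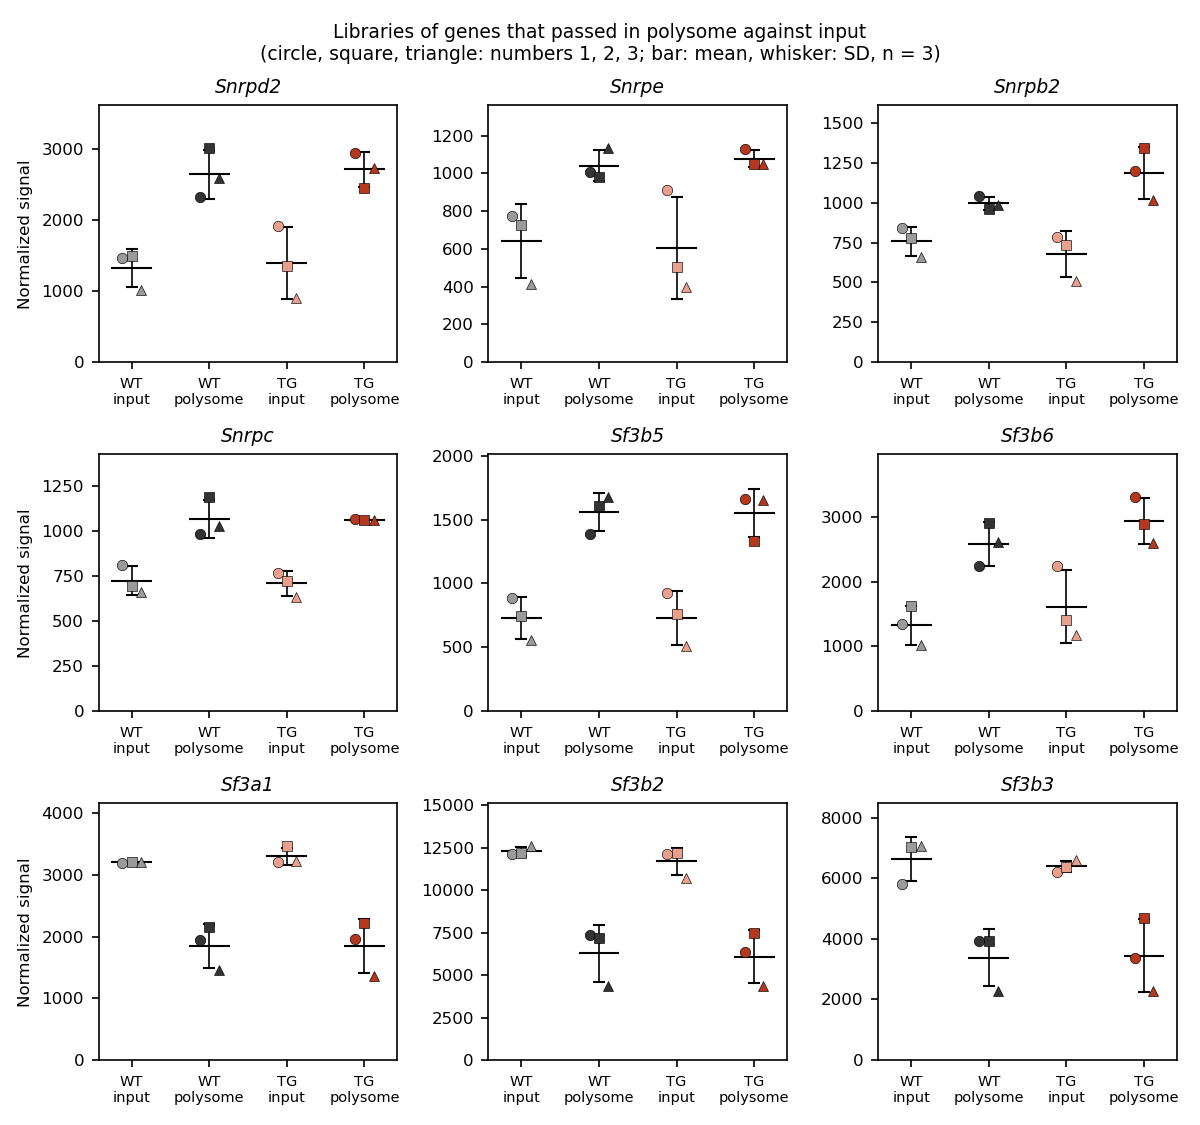
Normalized signal (linear axis from 0) of the 9 genes that passed in polysome against input in at least 1 genotype; circles, squares and triangles are libraries 1, 2 and 3, bars are means and whiskers SD (n = 3). The 6 genes of the upper panels have higher polysome values, and Sf3a1, Sf3b2 and Sf3b3 in the bottom row lower ones, with the number 3 polysome library lowest.

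The same values can be written as a ratio inside single libraries, here of Sf3b5 and Sf3b2, which were called in opposite directions. Sf3b5 was 0.0733, 0.0614 and 0.0442 times Sf3b2 in WT input and 0.189, 0.225 and 0.387 times in WT polysome (numbers 1 to 3). In TG the ratio was 0.0759, 0.0624 and 0.0471 in input and 0.260, 0.178 and 0.378 in polysome. A ratio within a library does not depend on a single scaling factor for that library, but the normalization model is not given in the sources used here. The ratio was higher in each polysome library than in any input library. This follows from the values of the separate genes and adds no support to their calls.

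No SR gene passed in either genotype without the block (limma). At an unadjusted p under 0.05 there were 2 of 11 in WT (Srsf9 and Srsf11) and 1 in TG (Srsf11), against 30.2% and 32.8% of all genes. Srsf11, a factor that helps in the choice of 3' splice sites, had the smallest p of the 11 in both. It read 1515, 2009 and 1768 in WT input and 1126, 1349.6 and 992 in WT polysome, and 1656, 2164 and 1763 in TG input and 1358, 1499 and 875 in TG polysome. Input and polysome values did not overlap, and the log2 difference was -0.61 ± 0.21 in WT (adjusted p = 0.0751, limma) and -0.61 ± 0.21 in TG (adjusted p = 0.0675). With the block it passed as lower in both (adjusted p = 0.0197 and 0.0171).

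Srsf3, the smallest SR protein by coding length (492 bases), went the other way. It read 4544, 4683 and 2899 in WT input and 5786, 6364 and 4279 in WT polysome, and 4801, 4254 and 2424 in TG input and 6026, 7180.4 and 4036 in TG polysome. The groups overlapped, and number 3 was the lowest library of each, while polysome was higher in each same-numbered pair, by log2 differences of 0.35, 0.44 and 0.56 in WT and 0.33, 0.76 and 0.74 in TG. The difference was 0.45 ± 0.29 in WT and 0.61 ± 0.29 in TG, which passed with the block (adjusted p = 0.0269 and 0.00770) and not without it (adjusted p = 0.329 and 0.174, limma).

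Of the remaining SR genes, Srsf7 and Srsf9 were higher in polysome in all 6 pairs (Srsf9 0.32 ± 0.15 in WT and 0.31 ± 0.15 in TG). Srsf2, Srsf4 and Srsf6 were lower in all 6 (Srsf2 -0.45 ± 0.27 and -0.44 ± 0.27), and Srsf5 in 5 of 6 (-0.31 ± 0.16 and -0.27 ± 0.16). Srsf1 (-0.19 ± 0.21 and -0.17 ± 0.21), Srsf10 and Srsf12 went both ways. SR genes are known for exons that carry early stop codons and send part of their RNA to decay, and 9 of the 11 have an annotated transcript of that class, against 14 of all 32. The deposited values are sums per gene, so coding and decay-prone transcripts of a gene cannot be told apart.

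Libraries of number 3 deviated differently by family. In the number 3 polysome libraries the median deviation from the group mean was -0.38 (log2) for SR genes, -0.37 for SF3A and -0.40 for SF3B, but 0.02 for Sm genes. In the number 3 input libraries the median deviation was -0.29 for Sm genes, -0.21 for SF3B and for U1 and U2 genes, -0.10 for SF3A and -0.06 for SR genes. The deviations also ran with coding length. Spearman's rho with it was -0.65 in members for the number 3 polysome libraries and 0.41 for the number 3 input libraries. Over 15011 coding genes it was -0.21 and 0.29. The parts of family and coding length were not told apart. For Sf3b2 and Sf3b5 the same-numbered differences of polysome and input were widest in number 3, with Sf3b2 at -0.72, -0.76 and -1.54 in WT and -0.93, -0.71 and -1.29 in TG, and Sf3b5 at 0.64, 1.11 and 1.59 and 0.85, 0.81 and 1.71 (numbers 1 to 3). Without WT input library 3 none of the 32 genes passed in WT, without WT polysome library 3 only Sf3b5 did, and without WT polysome library 2, 4 passed. Without TG input 3, TG polysome 1 or TG polysome 3, 4 genes passed in TG, and without TG input 2, 5 passed. The called genes refitted one by one (all but Sf3a1) kept their direction in each of these fits.

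The differences ran with the length of the coding region. Of the 8 members with up to 400 coding bases (6 of the Sm ring proteins with Sf3b5 and Sf3b6), all 8 lay above 0 in both genotypes, with medians of 0.71 in WT and 0.80 in TG, where all 751 coding genes of that length had medians of 0.44 and 0.41. The 14 members of over 400 and up to 1000 bases had medians of 0.14 and 0.13 (3878 genes: 0.34 and 0.37), and the 6 of over 1000 and up to 2000 bases -0.24 and -0.22 (5756 genes: 0.02 and 0.04). The 4 members over 2000 bases (Sf3a1, Sf3b1, Sf3b2 and Sf3b3) lay below 0 in both genotypes, with medians of -0.91 and -0.91 (4626 genes: -0.38 and -0.39). Across the 32 genes Spearman's rho between coding length and the difference was -0.86 in WT and -0.84 in TG, against -0.55 and -0.55 across 15011 coding genes, as a description over genes that share libraries. For the length of the whole transcript rho was -0.51 and -0.49 in members, against -0.42 and -0.42 across the coding genes. For the number of exons it was -0.63 and -0.59 in members, against -0.42 and -0.41.

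**Figure D4:**
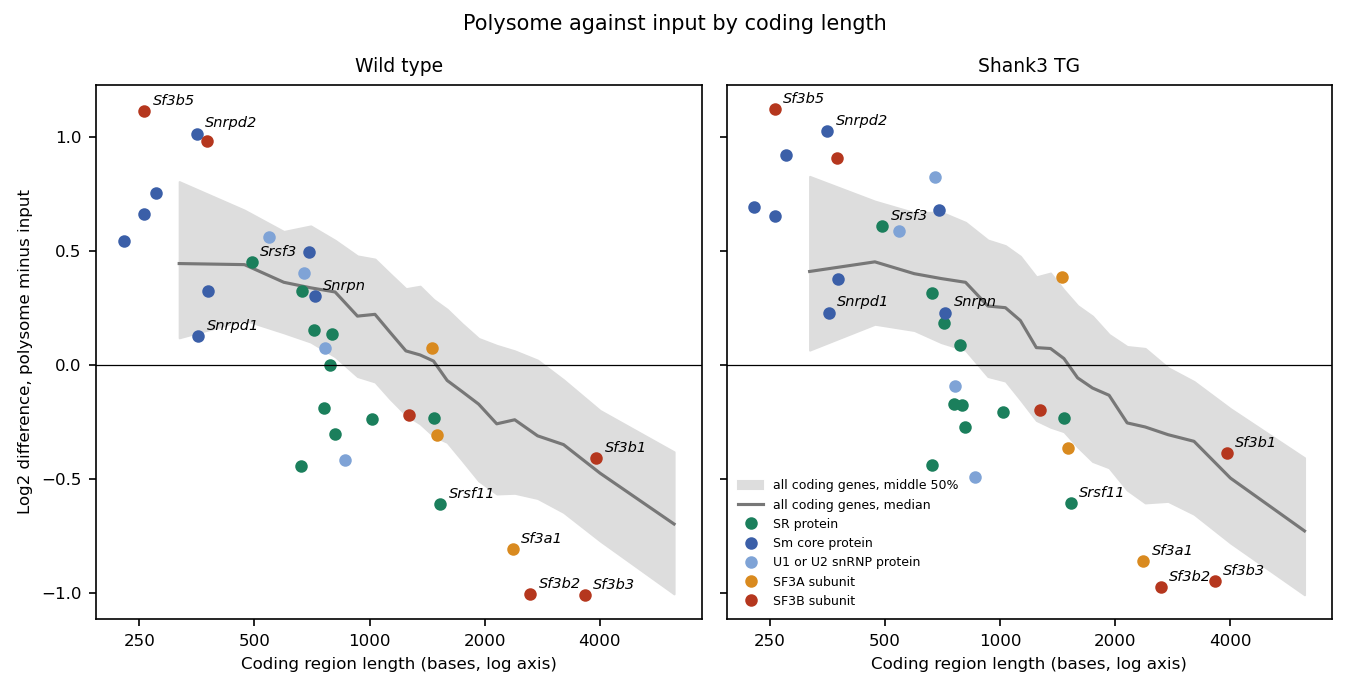
Log2 difference of polysome minus input against coding region length (log axis) in WT (left) and TG (right), with members as points coloured by family and all 15011 coding genes as a grey median line with the middle 50% shaded. Sf3b5 and Snrpd2 lie higher than the grey median of the shortest genes, and Sf3b2 and Sf3b3 below it at the long end.

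With the trend of each library on coding length removed, 2 of the 7 WT calls and 3 of the 9 TG calls remained. Of all members, 6.25% passed in WT and 12.5% in TG, where 5.72% and 8.54% of all genes did. The WT share was thus near that of all genes. Sf3b5 stayed higher (0.65 ± 0.15 in WT, adjusted p = 0.0315, and 0.72 ± 0.15 in TG, adjusted p = 0.0171, limma), and Sf3b2 stayed lower (-0.70 ± 0.19, adjusted p = 0.0487, and -0.67 ± 0.19, adjusted p = 0.0471). Sf3a1 stayed lower in TG (-0.59 ± 0.15, adjusted p = 0.0354) and not past the threshold in WT (-0.54 ± 0.15, adjusted p = 0.0593). Srsf5, which did not pass without it, passed as lower in TG (-0.59 ± 0.17, adjusted p = 0.0472). For Snrpd2 the value was 0.57 ± 0.18 in WT (adjusted p = 0.0855) and for Snrpc to 0.17 ± 0.13 (adjusted p = 0.465). With the trend on the length of the whole transcript removed instead, more calls remained. Then 6 members passed in WT and 7 in TG (18.75% and 21.9%), against 11.8% and 14.8% of all genes (limma). In WT these were Snrpd2, Sf3b5 and Sf3b6 as higher and Sf3a1, Sf3b2 and Sf3b3 as lower. Both corrections were chosen after the data were seen. Whether length itself or another property that goes with it sets the differences was not tested.

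Promoters of 4 genes that moved in opposite directions are shown so that the letters around their starts can be compared. The windows hold 250 bases before and 50 after the start, from RefSeq on GRCm38.p6, for the 2 genes with an entry that were highest in polysome against input in WT and for the 2 that were lowest. Capitals mark matches, on either strand, to the GC box (GGGCGG), the CCAAT box (CCAAT), the TATA box (TATAAA) and the cores of ETS (CCGGAAG), YY1 (AAGATGGC) and NRF1 (GCATGCGC) sites.
Snrpd2 (chr7:19149588-19149887, + strand): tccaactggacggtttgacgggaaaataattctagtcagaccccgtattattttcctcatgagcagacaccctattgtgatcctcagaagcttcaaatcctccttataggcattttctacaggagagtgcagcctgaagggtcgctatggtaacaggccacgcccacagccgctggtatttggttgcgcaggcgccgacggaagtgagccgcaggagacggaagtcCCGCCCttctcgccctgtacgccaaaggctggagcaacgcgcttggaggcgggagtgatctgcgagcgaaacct
Sf3b6 (chr12:4817358-4817657, + strand): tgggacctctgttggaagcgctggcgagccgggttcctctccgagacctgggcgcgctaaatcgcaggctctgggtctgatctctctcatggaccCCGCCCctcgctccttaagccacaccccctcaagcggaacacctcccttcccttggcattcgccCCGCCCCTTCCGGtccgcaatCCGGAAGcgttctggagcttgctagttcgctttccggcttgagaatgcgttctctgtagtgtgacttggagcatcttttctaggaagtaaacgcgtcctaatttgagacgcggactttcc
Sf3b2 (chr19:5295408-5295707, - strand): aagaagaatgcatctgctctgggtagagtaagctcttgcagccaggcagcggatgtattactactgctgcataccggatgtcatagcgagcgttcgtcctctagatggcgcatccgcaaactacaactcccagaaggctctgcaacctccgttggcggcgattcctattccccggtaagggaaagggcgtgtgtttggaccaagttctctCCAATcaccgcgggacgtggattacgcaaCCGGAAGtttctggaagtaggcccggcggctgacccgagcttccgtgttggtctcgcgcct
Sf3b3 (chr8:110846754-110847053, - strand): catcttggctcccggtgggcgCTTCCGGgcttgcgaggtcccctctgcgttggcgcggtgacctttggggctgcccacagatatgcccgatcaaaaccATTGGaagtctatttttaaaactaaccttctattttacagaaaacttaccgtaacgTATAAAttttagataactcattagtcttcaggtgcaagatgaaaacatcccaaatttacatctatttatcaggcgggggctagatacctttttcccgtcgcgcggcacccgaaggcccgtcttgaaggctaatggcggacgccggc
Snrpd2 held a GC box 24 bases upstream, and Sf3b6 held 2 GC boxes and 2 ETS cores, one pair of which abut without overlap. Sf3b2 held a CCAAT box and an ETS core, and Sf3b3 an ETS core, a CCAAT box and a TATA box. So the ETS core occurred in a gene of each direction. Over the 28 members with an entry (36 windows, counting a gene once if any window matched), 14 held the ETS core and 19 the GC box, where 8.86% and 35.7% of all 32851 windows did. The CCAAT box occurred in 10 of 28 (37.4% of all windows), the TATA box in 5 (13.6%), the NRF1 core in 2 (2.71%) and the YY1 core in 1 (2.75%). A start with C followed by 4 pyrimidines, the letters of terminal oligopyrimidine transcripts, occurred in 1 of 28, Srsf5, against 2.51% of all windows. These counts are per gene for the members and per window for all promoters, so the shares are not strictly alike. Member windows also had a higher median GC content (60.2%, against 52.7% of all windows), and its part in the matches was not tested. A match is a string of letters and not a binding site. Snrpb, Snrpd1, Sf3b4 and Sf3b5 had no entry in the table used.

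The comparison of genotypes asks whether the transcripts differ with the Shank3 transgene. None of the 32 genes passed in input or in polysome, and none of the members reached an unadjusted p under 0.05 (limma). Of all genes, 0 of 16341 passed in input, with 80 (0.490%) at an unadjusted p under 0.05, and 0 of 16312 in polysome, with 53 (0.325%). The members' log2 differences ran from -0.24 to 0.26 in input (median -0.01) and from -0.15 to 0.24 in polysome (median 0.02), where all genes had medians of -0.01 and 0.01. With the block no member passed either, against 0% of genes in input and 0.00613% in polysome. No member had groups that did not overlap, against 1.23% of genes higher and 1.39% lower in input, and 1.37% and 0.999% in polysome. The 95% intervals of the members reached from -1.08 to 0.89 in input and from -0.93 to 0.74 in polysome, and the width of a member's interval ran from 0.590 to 1.69 in input and from 0.663 to 1.59 in polysome.

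**Figure D5:**
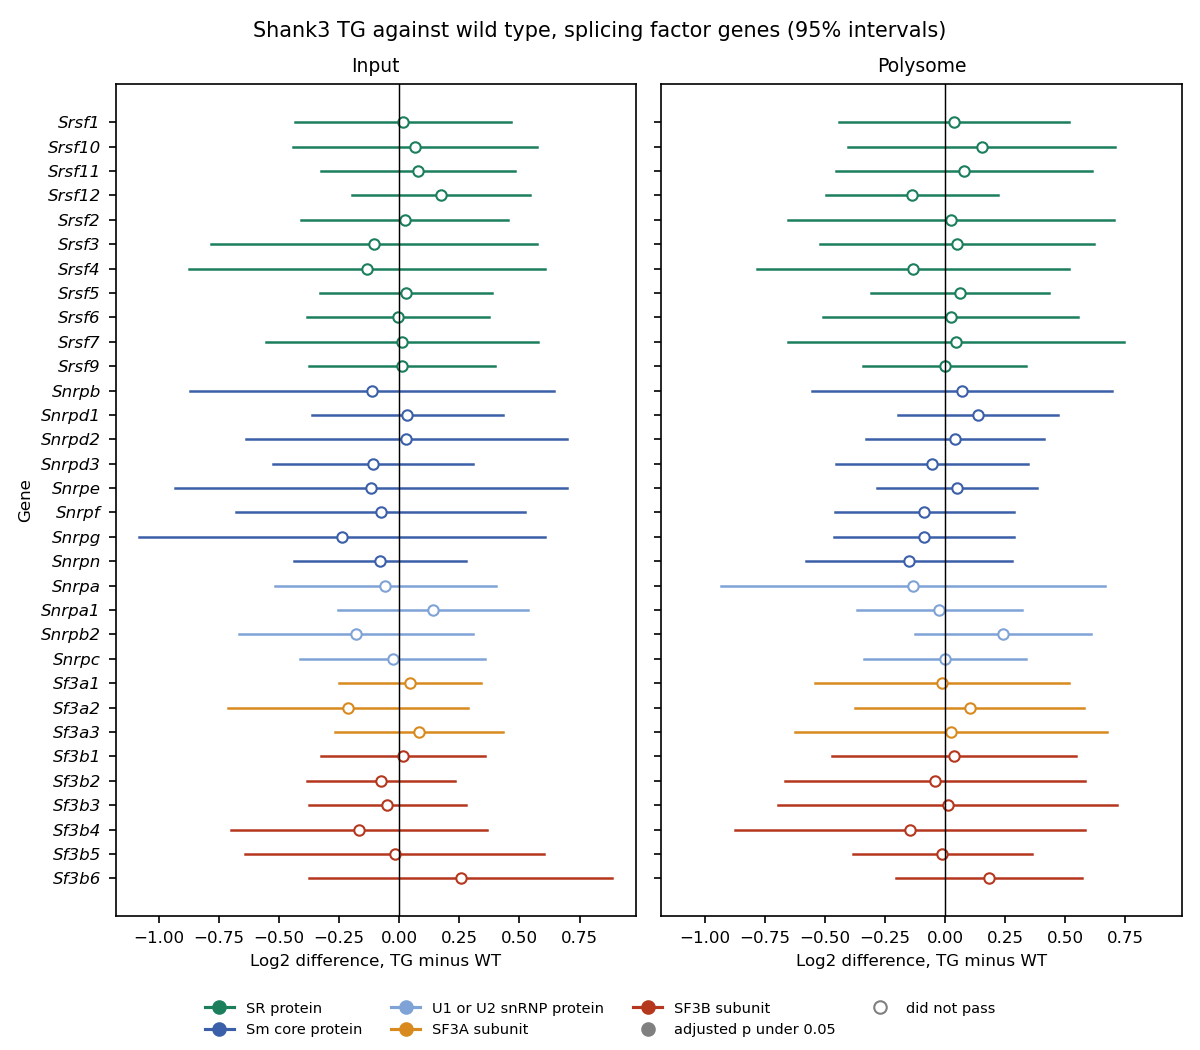
Log2 difference of TG minus WT for each gene in input (left) and polysome (right), with 95% intervals from the fit; open points did not pass. All 32 intervals in both panels include 0.

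In input the smallest p among the Srsf, the Snrp and the Sf3a and Sf3b genes was that of Srsf12, Snrpb2 and Sf3a2. Srsf12, an SR protein of restricted expression that can oppose other SR proteins, read 668, 702 and 766 in WT and 713, 871 and 830.4 in TG input, with a difference of 0.17 ± 0.16. Sf3a2 read 577, 480.2 and 383 in WT and 411, 475 and 350.3 in TG input, and 569.7, 563 and 384 and 529, 611 and 471 in polysome. All these groups overlapped between genotypes. Snrpb2 stood at -0.18 ± 0.21 and Sf3a2 at -0.21 ± 0.22 (adjusted p = 1.00 for each, limma). In polysome the smallest p in these 3 symbol groups was that of Snrpb2 (0.24 ± 0.16), Sf3b6 (0.18 ± 0.17) and Srsf12 (-0.14 ± 0.16), with adjusted p = 1.00 for each. Snrpb2 thus stood below 0 in input and above 0 in polysome, without passing in either.

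The interaction asks whether the polysome to input difference changes with genotype. No member passed and none had an unadjusted p under 0.05, and of all 16962 genes 0 passed and 94 (0.554%) had one (limma). The members ran from -0.31 to 0.42 with a median of 0.02, as for all genes. The extremes were Snrpb2 (0.42 ± 0.26) and Srsf12 (-0.31 ± 0.21), and the third named gene, Sf3a2, had 0.31 ± 0.30 (adjusted p = 1.00 for each). For Sf3b5 and Sf3b2, which differed between polysome and input in opposite directions, the interaction was 0.01 ± 0.33 and 0.03 ± 0.32.

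Genes of 7 other splicing lists and 1 list of nuclear RNAs were compared in the same way, where 5.36% of all genes were called higher and 8.59% lower in WT, and 8.19% and 9.86% in TG. Of 67 other snRNP and spliceosome genes, 1 was higher and 15 lower in WT, and 3 higher and 20 lower in TG (limma), so that 22.4% and 29.9% were called lower, with median log2 differences of -0.36 and -0.35. Prpf38b was the lowest in both (-1.51 ± 0.36 in WT and -1.46 ± 0.36 in TG), and the highest called were Bud31 in WT (0.51 ± 0.15) and Isy1 in TG (1.39 ± 0.37). Of 11 LSm proteins, relatives of the Sm proteins, Lsm8 passed as higher in both genotypes (0.74 ± 0.22 and 0.69 ± 0.22). That is 9.09% of the list in each, where 5.36% and 8.19% of all genes were called higher. The LSm medians were 0.33 and 0.30, against 0.52 and 0.66 for the Sm genes. All coding genes with up to 400 coding bases had medians of 0.44 and 0.41. The coding lengths of the listed genes were not compared. Of 31 SR-related proteins and SR kinases, 9 were lower in WT and 12 in TG and none higher (29.0% and 38.7% called lower, medians -0.44 and -0.61), with Son at -1.33 ± 0.18 in WT and Luc7l3 at -1.32 ± 0.30 in TG.

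Of 27 hnRNP proteins, 3 were lower in each genotype and none higher, which is 11.1% and near the share of all genes, with Hnrnph2 the lowest (-1.34 ± 0.26 and -1.31 ± 0.26; medians -0.19 and -0.23). Of 21 neuronal splicing regulators tested, Celf4 alone (4.76%, under the share of all genes) was lower in both (-0.85 ± 0.20 and -1.04 ± 0.20; medians -0.22 and -0.28). In the exon junction complex and nonsense-mediated decay list of 15, 1 was higher and 3 lower in WT, and 2 higher and 7 lower in TG (20% and 46.7% called lower, medians -0.57 and -0.55). Magohb was the highest (1.07 ± 0.21 and 0.94 ± 0.21) and Smg6 the lowest (-1.18 ± 0.18 in both). Of 18 snRNP assembly genes, 2 were lower in WT, and 1 was higher and 3 lower in TG. The shares called lower were 11.1% and 16.7%, against 8.59% and 9.86% of all genes. In TG 5.56% were called higher, against 8.19% of all genes. The medians were -0.04 and -0.02, with Gemin5 at -0.97 ± 0.20 and -0.94 ± 0.20 and Clns1a, a chaperone of Sm proteins, at 0.56 ± 0.16 in TG.

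A list of 11 long noncoding RNAs taken as nuclear gives a measure beside these, although where they lie in the cell was not tested. Of the 11 RNAs, 4 were called lower in polysome in WT and 5 in TG, and none higher. These are 36.4% and 45.5% of the list, against 8.59% and 9.86% of all genes called lower. The medians were -0.99 and -1.27, and 1 RNA lay above 0 in each genotype (0.13 in WT and 0.72 in TG). Rmst was the lowest in WT (-2.92 ± 0.22, adjusted p = 1.3e-05, limma) and Mirg in TG (-2.75 ± 0.40, adjusted p = 0.00196). Their summed signal was 18650 to 33337 in the input libraries and 7490 to 11997 in the polysome libraries, so these RNAs were detected in both fractions. None of the 8 lists had a called gene between genotypes in either fraction.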

How the data were processed

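The labels describe synaptosomal input and polysome RNA from 12 libraries, made with a stranded total RNA kit per the labels' protocols. Per the submitters' processing notes, Salmon 1.1.0, R 3.6.2 and DESeq2 1.26.0 were used with GRCm38, while the sources used here name neither the annotation nor the normalization model. The deposited table holds the authors' normalized estimated counts per gene, a signal that is not whole numbers: only 34.7% to 47.9% of low values lay within 0.1 read of a whole number, so reads were not recovered and no count test was run.

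Identifiers were matched to GENCODE M21 (21465 of 21492). limma 3.58.1 in R 4.3.3 was fitted with a variance trend to log2(value + 1), two-sided, over genes with a value of at least 10 in 3 fitted libraries, and p-values were Benjamini-Hochberg adjusted over all genes tested (threshold 0.05). Fold changes on this scale are understated for low genes. Genotype was fitted within a fraction (6 libraries), the rest in 1 fit of 12. Simulated data with known changes were used to test the code. Coding regions were aligned with Biopython 1.88.

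Over all genes, deviations from group means correlated at 0.24 to 0.55 in all 18 same-numbered pairs and at -0.41 to -0.00088 in the 36 others. Deviations within a group cancel, so negative values in the others follow in part from positive values in the pairs. Over the members alone the ranges were -0.20 to 0.87 and -0.78 to 0.55, which overlap. From the values over all genes the shared numbers were taken as pairs, although their meaning is not in the labels. The block was the number, within genotype for polysome against input. Alternatives were scaling by the trimmed mean of M values (TMM), filters, pseudocounts, variance trend, fitted libraries, the block and each library left out, and, added later, length trends and numbers left out in the block fit.

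The members and lists were chosen with earlier results of these data known. Genes with values in full are, by rule, up to 4 called per family and comparison or the smallest p, and the extreme levels of each family. The rule also took Snrpn, Snrpb, members with over 50% of sequence shared, and the largest called rise and fall of each list. Sf3a1, a called gene outside this rule, is also given in full. Snrpe, Snrpb2, Snrnp70 and Srsf3 were described further after their values were seen.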

Additional observations from a re-analysis of the deposited data

How the results depend on the processing

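For polysome against input, TMM scaling, the other filters and pseudocounts, no variance trend, another set of fitted libraries and leaving out members with shared sequence gave 6 to 7 calls in WT and 7 to 10 in TG, against 7 and 9 as reported. With the replicate block 12 passed in WT and 15 in TG. The length and number settings were chosen after seeing the data. In the block fit without number 2, 0 passed in WT and 4 in TG, and without number 1, 14 passed in TG. With the coding length trend removed 2 passed in WT and 4 in TG (6.25% and 12.5% of members, against 5.72% and 8.54% of all genes). With the transcript length trend removed 6 passed in WT and 7 in TG (18.75% and 21.9%, against 11.8% and 14.8% of all genes). Leaving out 1 library at a time gave 0 to 9 calls in WT and 4 to 12 in TG. In these fits the group of 2 libraries was assumed to vary like the others. No call between genotypes, and none of the interaction, appeared for a member in any of the settings run. With 1 library left out, the genotype difference of Snrpb2 in input ranged from -0.30 to 0.0088, changing sign without TG input library 3, and that of Sf3b6 in polysome changed sign in the block fit without number 1 (-0.0080, from 0.18). Where a call was lost, the cause was not tested. With 3 libraries a group, intervals of a member's genotype difference spanned up to 1.69 log2 units.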
